A study of Homo sapiens with 26 samples.

Results

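CDK2 and CDK6 are 2 of the 956 target genes in 10 pools of guide RNAs screened in RH4, an established alveolar rhabdomyosarcoma cell line that carries the PAX3-FOXO1 fusion. Both genes are cyclin-dependent kinases of the step from G1 into S phase. They form 1 set because both are carried by 2 pools, CF1 and KP2, with 10 guides per gene and pool, or 40 of the 2232 guides in these pools. The other libraries of the series held 0 guides for either gene. The pair was chosen by its measured ratios in these same sorts and by the gap between the pools for CDK6, so the ratios and the gap are given as a description with no test.

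All samples described were RH4 cells infected with a guide library for gene knockout, selected with a drug, then fixed, made permeable and stained on day 7 after infection with antibodies to MYH, the myosin heavy chain that marks differentiated muscle. Each pool was sorted into an MYH high and an MYH low sample, which gave 4 samples for CF1 and KP2. Each arm of a pool is 1 sample of 1 cell line, so a difference between arms has no replicate check, and the spread given with a gene is the standard deviation (SD) over its guides. The screen asks whether loss of a gene moves the cells toward or away from muscle differentiation. The log2 ratio sets the guide's level in MYH high cells over that in MYH low cells, so a guide more frequent in MYH high cells lies above 0.

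As background, CDK6 and its close relative CDK4 bind D-type cyclins in G1 and phosphorylate the retinoblastoma protein RB. CDK2 binds cyclin E and then cyclin A, completes that phosphorylation and drives S phase. Phosphorylated RB releases E2F transcription factors, while the INK4 proteins hold CDK4 and CDK6 in check and the CIP/KIP proteins act on CDK2. Muscle precursors leave the cell cycle as they differentiate, and active RB takes part in that exit.

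The CF1 samples held 124571531 reads (MYH high) and 101010414 reads (MYH low), and the KP2 samples 98557225 and 136084044. Single guides of CDK2 and CDK6 had between 23194 and 196315 reads in a sample, all above the minimum of 10 reads over both arms. Their counting error on the log2 scale was 0.00509 to 0.0126 per guide, far below the SD over guides. It covers the counting of reads only, since reads made by PCR without molecular identifiers are not independent molecules. Reads of a guide were divided by the sample's total and multiplied by 1e+06, which gives counts scaled to library size (CPM), and each log2 ratio was centred on the median of all guides of its pool.

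CDK6 guides were more frequent in MYH high cells of pool CF1, and each of the 10 guides shared that direction. Their median log2 ratio was 0.39 (SD over guides 0.14, 10 guides), which is 1.31-fold. This was the highest median of the 107 targets of CF1. In KP2 the median of CDK6 was 0.06 (SD 0.14, 10 guides), or 1.04-fold, at rank 22 of 98 targets. CDK2 had 0.09 (SD 0.23, 10 guides) in CF1, at rank 16, and 0.00 (SD 0.09, 10 guides) in KP2, at rank 43. Ordered by level, CDK6 in CF1 was followed by CDK2 in CF1, CDK6 in KP2 and CDK2 in KP2, and the last 3 lay within their SD over guides of each other.

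**Figure D1:**
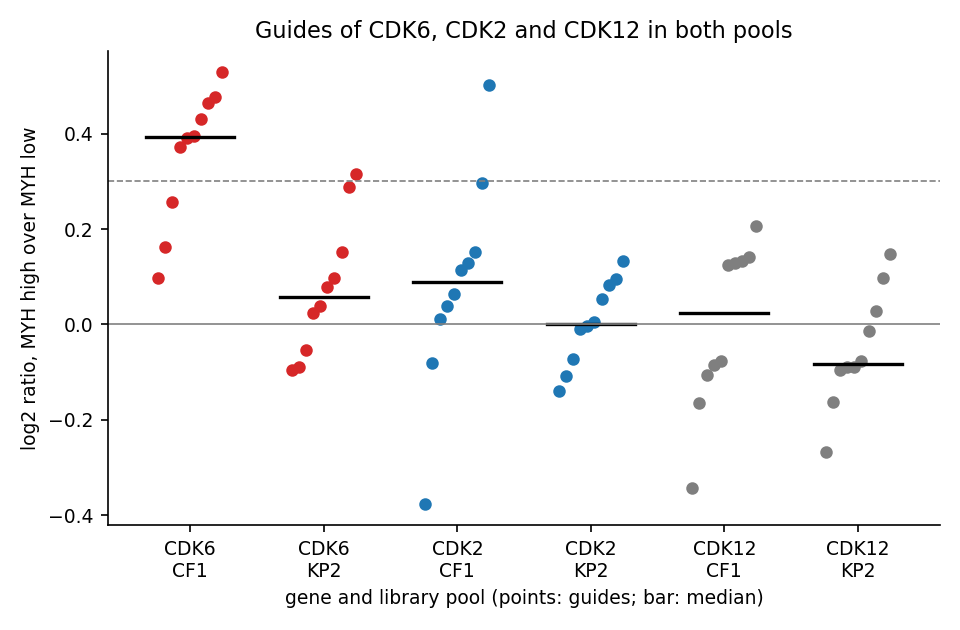
Log2 ratio, MYH high to MYH low (vertical axis), for each guide of CDK6, CDK2 and CDK12 in pools CF1 and KP2. Points are guides in ascending order, black bars are medians, and the dashed line marks 0.3. The CDK6 guides in CF1 lie between 0.10 and 0.53 around a median of 0.39, while the other 5 medians lie between -0.08 and 0.09.

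Guide by guide, CDK6 in CF1 was spread over a range of 0.10 to 0.53. Guide sgRNA_9483 was the most enriched, with 1320 CPM in MYH high and 967 CPM in MYH low cells, a log2 ratio of 0.53. Guide sgRNA_9487 had 1194 CPM in MYH high and 907 CPM in MYH low cells, a log2 ratio of 0.48. For sgRNA_9485 the levels were 731 and 560 CPM, a log2 ratio of 0.46. These guides held ranks 13, 16 and 17 among the 1113 target guides of CF1.

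The middle of the CDK6 set was narrow. Guide sgRNA_9479 had a log2 ratio of 0.43 (776 CPM in MYH high and 608 CPM in MYH low cells). Guides sgRNA_9486, sgRNA_9488 and sgRNA_9481 followed with log2 ratios of 0.39, 0.39 and 0.37. All 7 guides named so far were past 0.3 on the log2 scale (1.23-fold), the size limit used for counts below. The remaining 3 were below it. They were sgRNA_9480 with 0.26, sgRNA_9484 with 0.16 and sgRNA_9482 with 0.10, the last with 1085 CPM in MYH high and 1073 CPM in MYH low cells.

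Among all target guides of CF1, 5.75% were at or above 0.3 and 48.0% were above 0. For CDK6 it was 7 of 10 and 10 of 10, given beside this background as a description, since these ratios chose the gene. The only other CF1 target with at least 7 guides past 0.3 was ARID1A, a subunit of SWI/SNF chromatin remodellers, with 8 of 10 guides. Its median of 0.39 (SD 0.19) stood next below that of CDK6, and the SD over guides of either gene was far larger than the gap between them. Of the 107 targets of CF1, 2 had a median at or above 0.3 (1.87%), CDK6 and ARID1A. Before any centring, each of the 10 CDK6 guides already had more CPM in MYH high than in MYH low cells of CF1. Summed over the 10 guides, CDK6 had 8581 CPM in MYH high and 7066 CPM in MYH low cells.

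**Figure D2:**
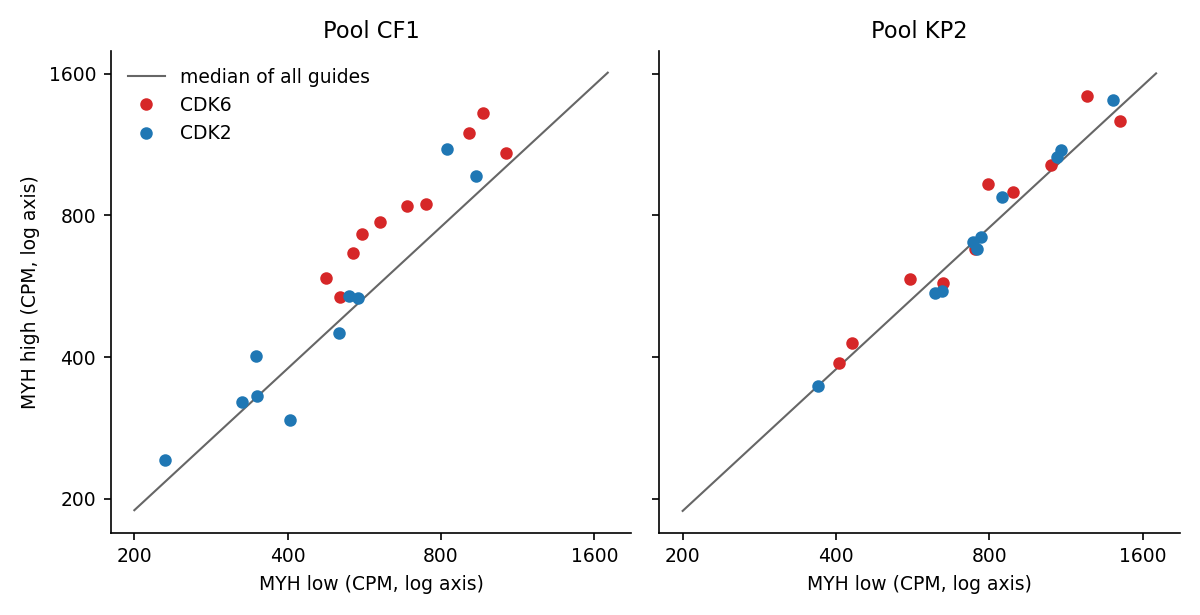
CPM of each CDK6 and CDK2 guide in MYH low (horizontal, log axis) and MYH high cells (vertical, log axis), in pools CF1 and KP2. The line marks the median ratio of all guides of the pool, and the CDK6 guides of CF1 lie above it in 10 of 10 cases, those of KP2 in 7 of 10.

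In KP2 the CDK6 guides lay on both sides of 0. The levels summed over guides were nearly equal, with 8216 CPM in MYH high and 8226 CPM in MYH low cells. Guide sgRNA7219 had the highest log2 ratio, 0.32, with 933 CPM in MYH high and 796 CPM in MYH low cells. Guide sgRNA7217 followed with 0.29 (1433 and 1244 CPM). These 2 guides stood above the rest, which ran from 0.15 (sgRNA7213) through 0.10 (sgRNA7212), 0.08 (sgRNA7210), 0.04 (sgRNA7211) and 0.02 (sgRNA7214) to -0.05 (sgRNA7216), -0.09 (sgRNA7215) and -0.10 (sgRNA7218).

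Thus 7 of 10 CDK6 guides were above 0 in KP2, where 48.7% of all target guides were, and 1 of 10 was past 0.3, where 5.48% were. Before centring, 4 of the 10 CDK6 guides had more CPM in MYH high cells of KP2, and the CDK6 median was -0.03. The highest KP2 guide of CDK6 reached rank 47 of 985 target guides. The SD over the CDK6 guides was nearly the same in both pools (0.14), while their medians differed. In KP2, 67 of 98 targets had a smaller SD than CDK6, and in CF1 41 of 107.

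CDK2 had its widest guides in CF1. Guide sgRNA_12166 had a log2 ratio of 0.50, with 1104 CPM in MYH high and 824 CPM in MYH low cells, at rank 15 of the target guides. Guide sgRNA_12170 had -0.38, with 294 CPM in MYH high and 404 CPM in MYH low cells, at rank 1087. These 2 guides against the same gene thus lay near opposite ends of the order of guides.

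Guide sgRNA_12169 had 0.298, just under the size limit. The remaining CDK2 guides of CF1 were close to 0, with 0.15 for sgRNA_12172, 0.13 for sgRNA_12175, 0.11 for sgRNA_12174, 0.06 for sgRNA_12167, 0.04 for sgRNA_12173, 0.01 for sgRNA_12171 and -0.08 for sgRNA_12168. In all, 8 of 10 CDK2 guides were above 0 and 1 of 10 was past 0.3. Only 7 of the 107 targets of CF1 had a larger SD over guides than CDK2. Before centring, 5 of the 10 guides had more CPM in MYH high cells.

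In KP2 the CDK2 guides formed one of the tighter sets of the pool, with a smaller SD in 17 of 98 targets. Their log2 ratios ran from -0.14 for sgRNA7194 (552 CPM in MYH high and 645 CPM in MYH low cells) to 0.13 for sgRNA7199 (875 and 847 CPM). Between them were -0.11 for sgRNA7193, -0.07 for sgRNA7190, -0.01 for sgRNA7198, -0.003 for sgRNA7192, 0.006 for sgRNA7191, 0.05 for sgRNA7196, 0.08 for sgRNA7195 and 0.09 for sgRNA7197. Thus 5 of 10 guides were above 0 and 0 of 10 were past 0.3. Before centring, 2 of the 10 had more CPM in MYH high cells, and the CDK2 median was -0.08. Summed over guides, CDK2 had 7996 CPM in MYH high and 8349 CPM in MYH low cells of KP2, and 5186 and 4994 CPM in CF1.

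**Figure D3:**
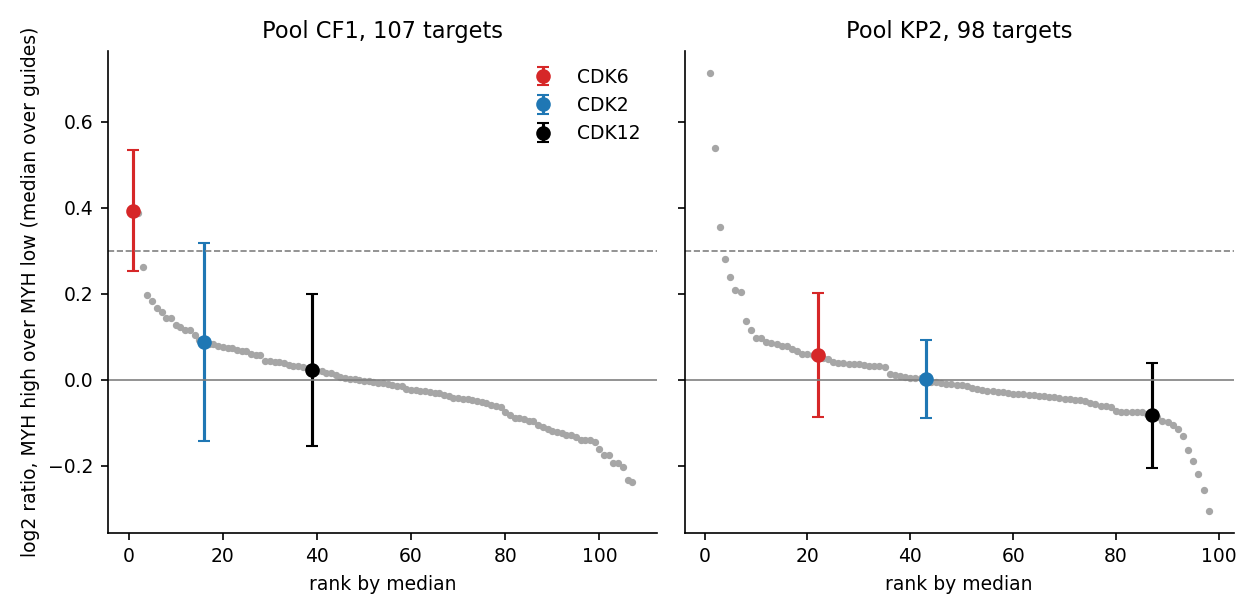
Targets of CF1 and KP2 ordered by rank (horizontal axis) of their median log2 ratio, MYH high to MYH low (vertical axis). CDK6, CDK2 and CDK12 are marked with error bars of 1 SD over guides, and the dashed line marks 0.3. CDK6 is first in CF1 and at rank 22 in KP2, and CDK2 is at ranks 16 and 43.

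Set against each other within a pool, CDK6 stood above CDK2 by 0.30 in CF1 and by 0.06 in KP2. In CF1 all 10 CDK6 guides were above the CDK2 median, yet 1 CDK6 guide was above the highest CDK2 guide, sgRNA_12166, so the guide ranges overlapped. In KP2 the figures were 7 above the CDK2 median and 3 above the highest CDK2 guide.

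Close to the 2 kinases in the order of CF1 were GTF2F2, a subunit of the general factor TFIIF, with 0.093 (SD 0.16) just above CDK2, and HDGFRP2 with 0.084 (SD 0.15) just below it. In KP2 the kinase PIM1 with 0.003 (SD 0.11) and the growth factor VEGFA with -0.006 (SD 0.15) enclosed CDK2. CDK6 was enclosed by its relative CDK4 with 0.059 (SD 0.13) and by TRPM6, an ion channel with a kinase domain, with 0.051 (SD 0.08). The medians of each of these neighbours differed from those of CDK2 or CDK6 by less than the SD over guides.

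For CDK6 the medians of CF1 and KP2 differed by 0.33 (0.39 in CF1 minus 0.06 in KP2). Of the CF1 guides, 7 of 10 were above the highest KP2 guide, and 7 of 10 KP2 guides were below the lowest CF1 guide, so the ranges overlapped in 3 guides of either pool. The same counts were 3 and 0 of 10 for CDK2, and 1 and 0 of 10 for CDK12, also a target of both pools. They were not made for the other genes in 2 pools. These counts hold for the main centring, where sgRNA7212 of KP2 (0.0967) lay just below sgRNA_9482 of CF1 (0.0972). For CDK2 the difference was 0.09 (0.09 minus 0.00), less than the SD over its guides in CF1. It was 0.018 with both pools centred on their negative controls and 0.0088 with both centred on the control guides they share. The guides of CF1 and KP2 for these genes share 0 names, and without sequences no guide could be paired between the pools.

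CF1 and KP2 share 3 targets, CDK2, CDK6 and CDK12. CDK12, a kinase that acts with cyclin K on transcription elongation, had a median of 0.02 in CF1, with an SD of 0.18, and of -0.08 in KP2, with an SD of 0.12, a difference of 0.11. Its pair of medians was nearer to that of CDK2 (distance 0.11 over the 2 pools on the log2 scale) than to that of CDK6 (0.40). The distance between CDK2 and CDK6 was 0.31. All 3 kinases thus had the higher median in CF1.

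Over all 10 pools, 28 genes were carried by 2 pools, and 7.14% of them (2 genes) differed by 0.3 or more. This count was 5 with either control centring, and 1 with the mean over guides or the summed CPM, and in all 4 of these settings CDK6 was below 0.3. Of the 28 genes, CDK10, BCL11A, TADA2B and MAX are carried by pool CF3. The negative controls of CF3 had a median of 1.30, and centring on them lowers every value of that pool by as much. In the main setting CDK6 was second in size after ARID1A, which had 0.39 in CF1 and -0.09 in TF3. The size of the difference had a median of 0.06 over the 28 genes, and below those 2 genes it reached at most 0.21. In both genes CF1 was the higher pool. Of the 10 genes that CF1 shares with another pool, 7 had the higher median in CF1, with a median difference of 0.08. Of the 7 genes that KP2 shares with another pool, 2 had the higher median in KP2.

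**Figure D4:**
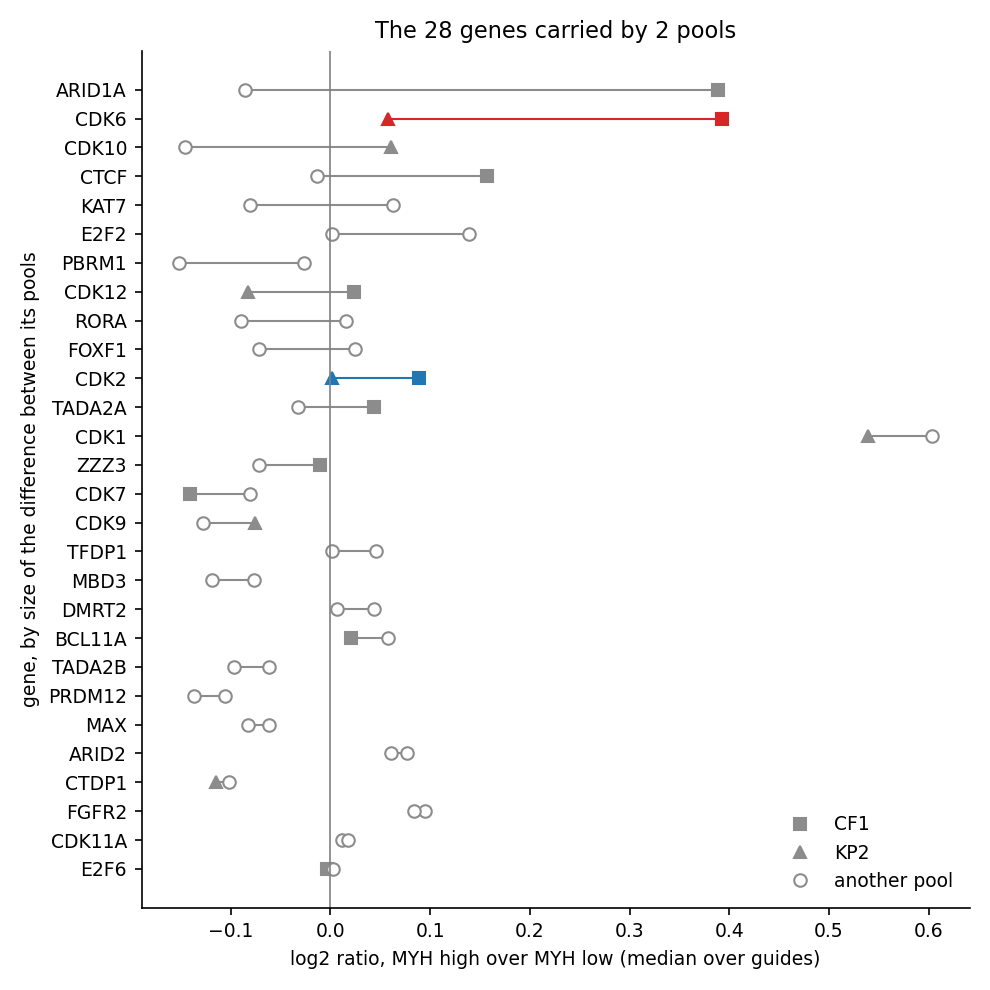
Median log2 ratio, MYH high to MYH low (horizontal axis), in both pools of each of the 28 genes carried by 2 pools, ordered by the size of the difference. Filled squares are CF1, filled triangles KP2 and open circles other pools. CDK6 (red) spans 0.06 to 0.39, CDK2 (blue) 0.00 to 0.09, and the CDK1 medians of 0.54 and 0.60 lie close together.

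Control guides with the same name in both pools were measured in the same 4 samples. The 46 control guides outside the fusion sets had a median difference of CF1 minus KP2 of 0.06, and 30 of them were higher in CF1. A difference of 0.3 or more in size was found for 8 of the 46 single guides, 6 of them higher in CF1. By set, the median over guides was 0.19 in CF1 and -0.002 in KP2 for PCNA, the sliding clamp of DNA replication, and 0.07 and -0.002 for the negative controls. It was 0.13 and 0.02 for PAX3_non-fusion, 0.08 and 0.15 for FOXO1_non-fusion, and 0.005 and -0.05 for MYOD1.

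The guide sets against the fusion, which had higher medians than any target of either pool, also had higher medians in CF1 than in KP2. PAX3_Fusion_DBD had a median log2 ratio of 3.24 (SD 0.70, 10 guides) in CF1, and in KP2 2.80 (SD 1.20). FOXO1_fusion had 2.88 (SD 0.66, 11 guides) in CF1, and in KP2 2.42 (SD 0.84). As a share of the PAX3_Fusion_DBD median of the same pool, CDK6 reached 12.1% in CF1 and 2.08% in KP2. As a share of FOXO1_fusion it reached 13.7% and 2.41%. For CDK2 the shares of PAX3_Fusion_DBD were 2.73% and 0.0554%.

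The difference of CDK6 depended on the centring and the summary. With both pools centred on the 46 control guides it was 0.26, with both centred on the negative controls 0.27, with the mean over guides 0.28, and with the summed CPM 0.28, all below the size limit. In these 4 settings CDK6 in CF1 stayed above 0.3, with its lowest value, 0.309, when centred on the shared control guides. Pool, guide set and sort differ together between CF1 and KP2 and cannot be told apart.

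The score (beta) of the authors' deposited table is on a log scale of unstated base. In the authors' deposited table CDK6 had a beta of 0.250 in CF1, rank 2 of 107 targets, and 0.0529 in KP2, rank 18 of 98. Its false discovery rate in the authors' deposited table was 0.158 in CF1 and 0.941 in KP2, and in the column from a Wald test 0.104 and 0.273. CDK2 had a beta of 0.0614 in CF1 and 0.00313 in KP2 in the authors' deposited table, with false discovery rates of 0.844 and 0.941. Neither gene passed 0.05 there in either pool. In CF1, 0 enriched targets of the authors' deposited table did so, and in KP2 2 did.

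The other measured G1/S kinases lay near 0. CDK4, the other partner of D-type cyclins, had 0.06 (SD 0.13) in KP2, with 9 of 10 guides above 0. It stood within 0.01 of CDK6 in that pool. CDK3, a less studied G1 kinase, had 0.01 (SD 0.06) in KP1. Of the 6 measurements of the G1/S kinase list, 1 was at or above 0.3, where 1.53% of all 983 target measurements were, and 0 were at or below -0.3, where 0.712% were. The list's median was 0.06 and that of all target measurements -0.009. This list contains the 2 chosen genes, so its count says nothing beyond them.

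The kinases of mitosis were spread on both sides of 0. Of 10 measurements of 9 mitotic kinases, 4 were at or above 0.3 (1.53% of all target measurements were) and 0 at or below -0.3 (0.712%), with a median of 0.23. The 4 came from 3 genes, since CDK1 was counted in 2 pools. The list and the limit were chosen with earlier results of these data known, so the count is a description. AURKA, which builds the spindle poles, had 0.71 (SD 0.51), and AURKB, of the chromosomal passenger complex, 0.35 (SD 0.37), both in KP2. CDK1, the partner of cyclin B at mitotic entry, had 0.54 (SD 0.25) in KP2 and 0.60 (SD 0.33) in CF2. CDK1 thus differed by 0.06 between its 2 pools, where CDK6 differed by 0.33. AURKA, CDK1 and AURKB were the 3 targets of KP2 at or above 0.3 (3.06%). The gap between AURKB and CDK6 in that pool was less than the SD over the AURKB guides. The other mitotic kinases were below the limit. PLK1, which acts throughout mitosis, had 0.25 (SD 0.21) in KP1, and BUB1, of the spindle checkpoint, had 0.20 (SD 0.12) in KP2, each with 10 of 10 guides above 0. MASTL in KP1 (0.02) and NEK2 in KP2 (0.004) lay near 0. The checkpoint kinases BUB1B (-0.07) and TTK (-0.09, with 1 of 10 guides above 0), both in KP1, lay below it.

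All 4 measurements of the kinase that activates other CDKs, from 3 genes, lay below 0. The median of all 983 target measurements was -0.009, so most targets lay below 0 as well. The CDK-activating kinase, made of CDK7, cyclin H and MNAT1, phosphorylates the activation loops of CDK2 and CDK6. Its 4 measurements ran from -0.17 to -0.08, with a median of -0.15 and 0 past the size limit. The median of CDK7 was -0.14 in CF1 (SD 0.21) and -0.08 in KP1 (SD 0.11). For CCNH, the gene of cyclin H, CF1 gave -0.16 (SD 0.08), and 0 of its 10 guides were above 0. CDK7 stood at rank 98 and CCNH at rank 100 of the 107 targets of CF1. Around them in that order were SUPT6H (rank 97), TAF5 (99) and MED14 (101), which lay below 0 as well. The CF1 values of CDK7 and CCNH were picked after they were seen. MNAT1 had -0.17 (SD 0.21) in CF2. Whether any of these values bears on the activation of CDK2 or CDK6 was not tested.

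Of the measured regulators and targets of CDK2 and CDK6, 0 measurements were past the size limit in either direction. Measured were 2 of 14 listed cyclins and CDK inhibitors, 5 of 8 brakes and phosphatases and 6 of 16 genes of the RB-E2F list. The D-type cyclins, cyclin E, cyclin A and RB were not among them. Of all 983 target measurements, 1.53% were past the limit upward and 0.712% downward. At such low shares a count of 0 does not set these lists apart. CDC25B, a phosphatase that removes inhibitory phosphates from CDKs, was the highest of the brakes and phosphatases with 0.24 (SD 0.17) in KP2, with 10 of 10 guides above 0. CDC14A, a phosphatase that acts against CDK substrates, was the lowest with -0.04 (SD 0.09) in KP1. Of the inhibitors, CDKN1A, the gene of p21, had 0.04 (SD 0.12) in KP2, and CDKN2A, the gene of the INK4 protein p16, had -0.10 (SD 0.07) in KP1.

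The 9 measurements of the RB-E2F list had a median of 0.002. MYBL2, a transcription factor of the S and G2 phases, was the highest with 0.19 (SD 0.18) in TF2, and E2F4, a repressor-type E2F, was the lowest with -0.06 (SD 0.14) in TF1. Of the S-phase and checkpoint kinases, CDC7, which fires replication origins, was the highest with 0.15 (SD 0.15) in KP1. ATR, the replication stress kinase, was the lowest with -0.13 (SD 0.11) in KP2. The 9 measurements of the transcriptional CDKs had a median of 0.009, from -0.13 for CDK9 in CF2 to 0.12 for CDK11B in KP2, and the 4 of the other CDKs had 0.05, from -0.15 for CDK10 in CF3 to 0.09 for CDK15 in KP2. In CF3 the negative controls had a median of 1.30, against 0.07 in CF1 and -0.002 in KP2, and their part in the CDK10 value was not tested.

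**Figure D5:**
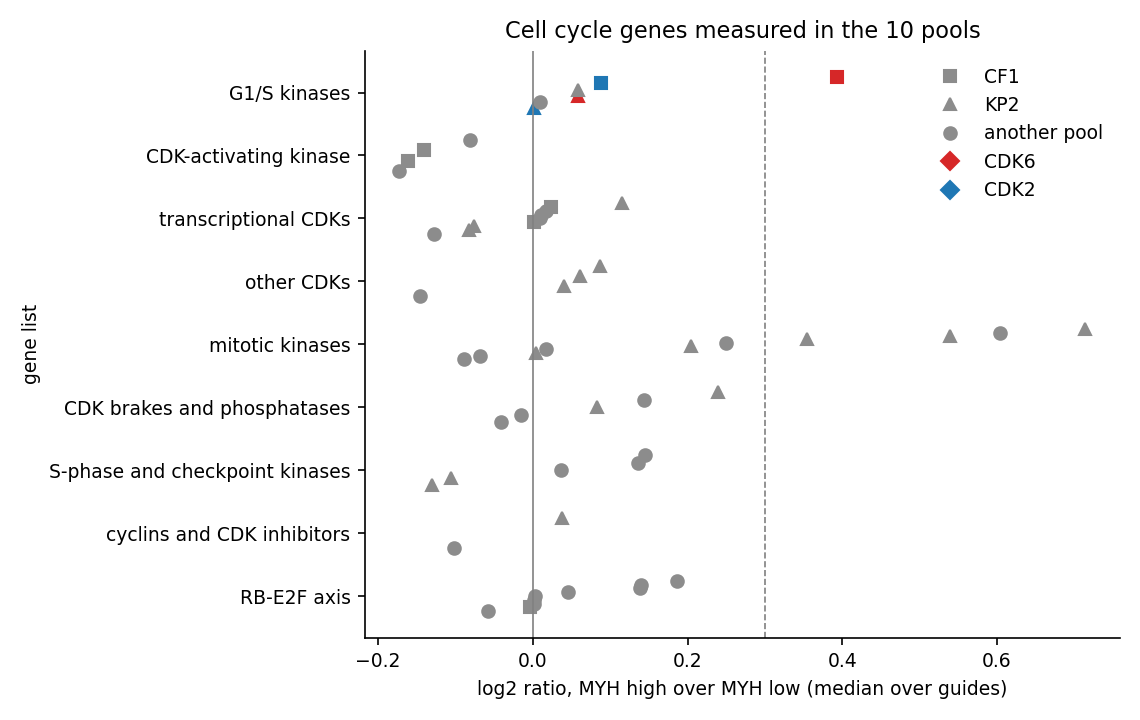
Median log2 ratio, MYH high to MYH low (horizontal axis), of each measured cell cycle gene, by list. Squares are CF1, triangles KP2 and circles other pools, with CDK6 in red, CDK2 in blue and a dashed line at 0.3. The points past 0.3 are CDK6 in CF1 and 4 measurements of the mitotic kinases. The 4 points of the CDK-activating kinase lie below 0, as does the median of all target measurements (-0.009).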

How the data were processed

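For each guide the authors deposited raw read counts per sample, from guide cassettes amplified out of genomic DNA (per the labels' protocols). The tools FastQC and MAGeCK appear, without versions, in the submitters' processing notes. Guide sequences and a genome build were not used here. A further table for each pool, also deposited by the authors, holds a score (beta) per gene with p-values and false discovery rates, under column names of the MAGeCK model.

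CPM are a guide's counts divided by the sample total, scaled by 1e+06. The log2 ratio was taken with a pseudocount of 1 CPM, so it is on the log2(CPM + 1) scale, and centred on the pool's median guide. A minimum of 10 reads summed over the arms dropped 0 guides of CF1 and KP2. Each target with 3 or more guides was summarised by their median, and targets at or beyond 0.3 on the log2 scale were counted. With 1 sample per arm no test between arms was possible and no p-value was computed. Guides of a gene share a target, and are not replicates of the sort. MYOD1 was treated as a control set in every pool. The members, the 9 gene lists (82 genes, 43 of them measured) and the size limit were chosen with earlier results of these data known. Named genes followed a rule: both members with every guide, list members that CF1 and KP2 share, G1/S kinases, from other lists the members past the limit or else the highest and lowest, neighbours in the order, the genes nearest in pattern, and the control sets. CCNH, the CF1 value of CDK7 and the mitotic kinases below the limit fall outside it and were chosen after their values were seen. SUPT6H, TAF5 and MED14, named as neighbours of CDK7 and CCNH, also fall outside the rule. So do BCL11A, TADA2B and MAX, named as genes in 2 pools that CF3 carries. Alternatives were other centrings, pseudocounts, count minimums, summaries and limits, with scaling to the fusion sets, all genes in 2 pools as background and the omission of guide sgRNA3239 added after the values were seen. The procedure was tested on simulated counts. Python 3.11.15, numpy 2.4.6, pandas 2.3.3 and matplotlib 3.10.9 were used.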

Additional observations from a re-analysis of the deposited data

How the results depend on the processing

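The direction of CDK6 in CF1, at 0.39, was the same under 11 alternatives (0.31 to 0.39) and when each guide was left out in turn (0.39 to 0.39), always at or above the size limit. In KP2 CDK6 ran from -0.03 with no centring to 0.08, CDK2 in CF1 from 0.004 to 0.14 and CDK2 in KP2 from -0.08 with no centring to 0.02, all within the SD over guides of the main value. The difference of CDK6 between the pools, 0.33, was below the limit when centred on the negative controls (0.266) or on the shared control guides (0.257), and with the mean over guides (0.282) or the summed CPM (0.277). It ran from 0.32 to 0.35 with each guide left out. The difference of CDK2, 0.09, ran from 0.0088 to 0.11. The count of genes in 2 pools that differ by the limit, 2 in the main setting, was 5 with either control centring and 1 with the mean or the summed CPM. With a limit of 0.5 it was 0, and 0 targets of CF1 remained past it. With a limit of 0.2, 7 targets of KP2 were past it against 3. Centring on the negative controls lowers every CF3 value by their median there, 1.30. CDK10, BCL11A, TADA2B and MAX are among the genes in 2 pools through CF3. How far this makes up the count of 5, and the cause of the other shifts, was not tested. Of 105 alternative values, 94 kept their side of the limit or stayed within 1.5 times a count. Counting error was far below the SD over guides, while the single sample per arm leaves the error of the sort unmeasured. The planned median over same-named guides was not run, because 0 names are shared. No paired analysis was possible because each arm is 1 sample.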

Other observations

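Among the negative controls of CF1, guide sgRNA3239 had the highest ratio. It had 1065604 reads in MYH high and 42300 reads in MYH low cells, a log2 ratio of 4.43, above the median of either fusion set of that pool. It held 0.855% of the MYH high reads and 0.0419% of the MYH low reads. In KP2 the same guide had -0.01, and in the 9 other pools it ran from -2.51 to 2.22, with a median of 0.41. Leaving it out moved no value of CDK2 or CDK6 by more than 0.01.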
